A study of Homo sapiens with 10 samples.

Results

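Retinoic acid, the active form of vitamin A, is made inside cells from retinol and acts through nuclear receptors. STRA6 takes up retinol from its carrier in blood, retinol and retinaldehyde are converted into each other by dehydrogenases and reductases, and ALDH1A enzymes oxidise retinaldehyde to retinoic acid. CRABP proteins carry the acid through the cytosol, and RAR and RXR receptors bind DNA in pairs and regulate genes when the acid is bound. In neuroblastoma cells retinoic acid is a classical inducer of neuronal differentiation.

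A set of 10 genes of this route was followed. STRA6 stood for uptake, DHRS3 and ALDH1A3 for the synthesis step, and CRABP1 and CRABP2 for carriage. RARA, RARB, RARG, RXRA and RXRB were the receptors. DHRS3 acts against synthesis, since it reduces retinaldehyde back to retinol. Members were found by gene symbol among the 14232 genes that could be named on the array. Where a gene had several probe sets, the brightest on average was to be taken, but each of 9 members had 1 probe set, so measured levels decided nothing at that step. Among the probe sets analysed here none carried CRABP1 as its only symbol, and CRABP1 has no value. The set of genes was chosen from the pathway with earlier log2 fold changes of these data known, among them the large rise of CRABP2, so the differences below describe these lines and are no independent evidence about the pathway.

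Both groups were SH-SY5Y, a human neuroblastoma cell line of noradrenergic character. One line was stably transfected with wild-type SOD1 (5 arrays, samples 2, 8, 11, 14 and 17) and the other with SOD1(G93A), a mutant found in familial amyotrophic lateral sclerosis (5 arrays, samples 3, 9, 12, 15 and 18). Both were grown in D-MEM/F-12 with 10% FBS, antibiotics and 400 µg/ml G418, which selects for the transfected DNA. The sources used here name neither the promoter of the construct nor whether a line was 1 clone or a pool, nor do they call the samples of a group separate cultures. Sample numbers run in neighbouring pairs across the lines (2 and 3, 8 and 9, 11 and 12, 14 and 15, 17 and 18), and whether such pairs share a batch is not stated. The p-values therefore cover the scatter among these samples, possibly technical, and an effect of the mutation cannot be told apart from any other difference between the lines.

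RNA was read on Affymetrix exon arrays and every value is a gene-level log2 intensity, on which a difference of 1 is 2-fold. Array medians lay between 6.26 and 6.34 and lower quartiles between 3.84 and 3.89. Pairs of arrays correlated at 0.990 to 0.994 inside a group and at 0.986 to 0.990 across groups. SOD1 was read by a probe set that may measure the construct and the cells' own gene together. It differed by −0.23 (SE 0.07, 95% interval −0.39 to −0.06, limma adjusted p = 0.107 over all probe sets). An exact permutation test of its 10 values, 2-sided, gave p = 0.016. SOD1 does not check the labels. The noradrenergic transcription factors PHOX2A, GATA3 and ISL1 were bright in all arrays, with group means from 9.17 to 10.32 (GATA3 fell by 0.38, SE 0.07), and TH, the first enzyme of catecholamine synthesis, had means of 5.59 and 5.67.

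In the SOD1(G93A) line CRABP2 stood far higher; it was picked for that rise and is described without a test. Of the 8 other measured members 2 were higher (RARB and ALDH1A3) and 2 lower (RXRA and STRA6), at an adjusted p of 0.05 or less by limma over all 22011 probe sets, and DHRS3, RARA, RARG and RXRB did not pass. Of all 14232 named genes 9.60% passed, 4.03% higher and 5.57% lower, and of all probe sets 7.46%. In 4 of the 8 members, the same 4 that passed, the 10 arrays separated by line without overlap, as they did in 11.4% of named genes. RARB alone of these 8 reached 2-fold, which 1.18% of named genes did. The shares of all genes are given as background, since the members were chosen with results known. The median log2 fold change, SOD1(G93A) minus wild-type throughout, was 0.06 over the 8 members, 0.21 with CRABP2 and −0.004 over the named genes. Because RNA was taken from whole cultures, fewer expressing cells and less RNA per cell cannot be told apart.

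**Figure D1:**
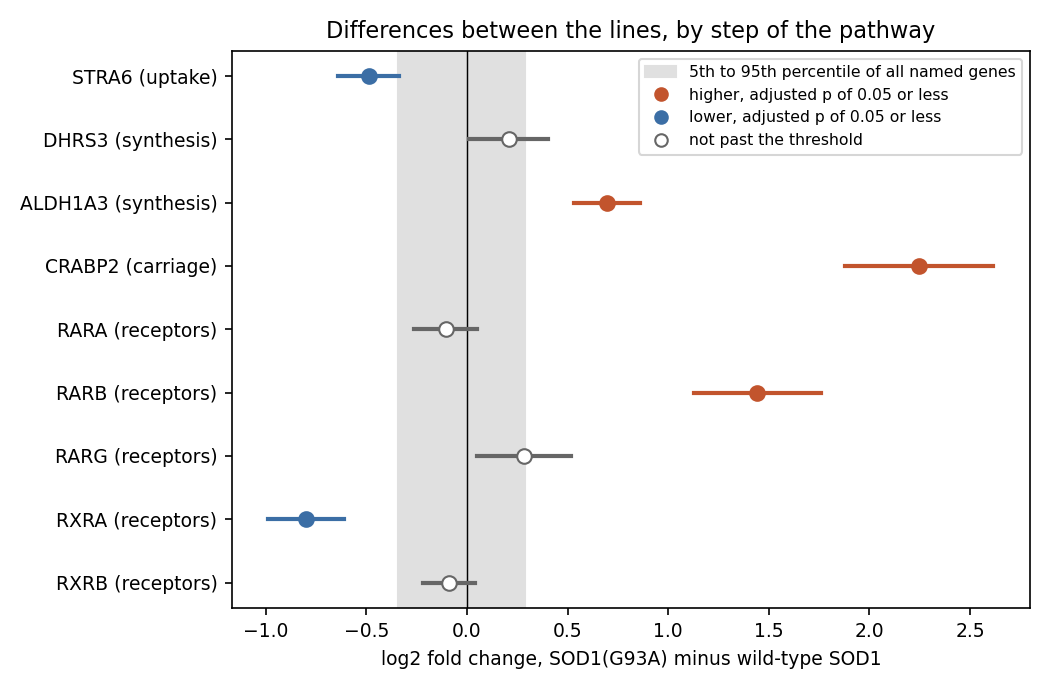
Log2 fold change, SOD1(G93A) minus wild-type SOD1 (x axis), for the 9 measured members in pathway order; lines are 95% intervals from the moderated standard error, filled points lie at or under an adjusted p of 0.05 (no test is drawn from that of CRABP2), and the grey band runs from −0.34 to 0.29, the 5th to 95th percentile of all named genes. CRABP2 (2.25), RARB (1.44) and ALDH1A3 (0.70) lie to the right of the band and RXRA (−0.80) and STRA6 (−0.49) to its left.

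RARB is known as a receptor gene that is itself switched on by retinoic acid, through a pair of receptor core elements just before one of its start sites. The promoter stretches of RARB and CRABP2 are therefore shown, these being the members that changed at least 2-fold. Each gives the 250 bases before a start site, 5′ to 3′ on the gene's strand, from RefSeq on GRCh38.p14, and capitals mark any of 4 core elements of 6 bases (AGGTCA, the variant AGTTCA, the form GGGTCA or the form GGTTCA, searched on both strands).
RARB, chr3:25428013-25428262, plus strand: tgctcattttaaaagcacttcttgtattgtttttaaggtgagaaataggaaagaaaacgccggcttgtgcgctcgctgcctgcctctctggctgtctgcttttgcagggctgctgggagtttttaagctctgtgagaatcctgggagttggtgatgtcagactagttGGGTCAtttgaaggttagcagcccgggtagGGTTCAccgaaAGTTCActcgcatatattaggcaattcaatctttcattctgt
CRABP2, chr1:156705785-156706034, minus strand: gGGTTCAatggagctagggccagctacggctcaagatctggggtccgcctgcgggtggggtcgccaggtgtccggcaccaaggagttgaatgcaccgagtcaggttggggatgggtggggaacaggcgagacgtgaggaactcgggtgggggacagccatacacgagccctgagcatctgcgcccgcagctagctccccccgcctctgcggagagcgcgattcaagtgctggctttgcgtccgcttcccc

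In the RARB stretch GGTTCA is followed by AGTTCA in the same direction after 5 bases, the spacing known as DR5, from base −53 to base −37 before the start. A further single element, GGGTCA, begins at base −83. The CRABP2 stretch holds a single GGTTCA, at bases −249 to −244. At least 1 such element was found in 33.8% of the 35116 RefSeq promoters in this window, so a single one is common. A DR5 pair was found in 0.0883% of promoters (31 of 35116) searched from 250 bases before to 50 bases after the start, and pairs 1 or 2 bases apart (DR1 and DR2) in 0.131% and 0.0399%. Among 23 such windows of the 10 members, only the RARB window shown held any of these pairs. The other 3 RARB windows had none of them. Sequence outside these windows was not searched. The RARB DR5 pair was known before the search, and its elements, GGTTCA and AGTTCA, were among those searched for. That match was therefore settled in advance, and the share of promoters with a DR5 pair does not make it evidence. The elements and pairs given here are matches of letters, and the array's gene-level value does not tell which start site was used.

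Uptake was represented by STRA6, which was bright in both lines, above 89.9% of all probe sets. Its levels with wild-type SOD1 were 9.45, 9.57, 9.74, 9.72 and 9.63 in samples 2, 8, 11, 14 and 17. With SOD1(G93A) they were 9.14, 9.12, 9.19, 9.22 and 8.99 in samples 3, 9, 12, 15 and 18. The lowest wild-type array lay 0.24 above the highest SOD1(G93A) array. STRA6 fell by 0.49 on the log2 scale (SE 0.07, limma adjusted p = 0.00119), or 1.40-fold.

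ALDH1A3, the retinaldehyde dehydrogenase that makes the acid, went the opposite way. Wild-type arrays read 7.72, 7.82, 8.09, 7.85 and 7.91, and SOD1(G93A) arrays 8.63, 8.46, 8.51, 8.63 and 8.63, in the same sample order. All SOD1(G93A) arrays were higher than every wild-type array, with a gap of 0.375. ALDH1A3 rose by 0.70 (SE 0.07, limma adjusted p = 0.00015), or 1.62-fold.

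DHRS3 reduces retinaldehyde back to retinol and so draws substrate away from ALDH1A3; it is also a known retinoic acid response gene. Its levels were 4.87, 4.80, 4.75, 4.58 and 5.005 with wild-type SOD1 and 5.02, 4.96, 5.22, 4.91 and 4.92 with SOD1(G93A). The groups overlapped, since wild-type sample 17 lay above 3 of the SOD1(G93A) arrays. The difference was 0.21 (SE 0.09, 95% interval 0.01 to 0.40) and did not pass over all probe sets (limma adjusted p = 0.238).

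The carrier CRABP2 delivers retinoic acid to RAR in the nucleus. Wild-type arrays read 5.71, 6.15, 6.41, 5.76 and 6.46, a wide spread in which samples 2 and 14 were low. SOD1(G93A) arrays read 8.61, 8.38, 8.41, 8.00 and 8.36, with sample 15 the lowest of them. The gap between the groups, 1.54, was larger than the range within either. The means were 6.10 ± 0.35 and 8.35 ± 0.22 (SD, n = 5 each), a log2 fold change of 2.25 (SE 0.17) or 4.75-fold, which ranked 11 among the rises of all named genes. CRABP2 was picked for this rise, so no p-value is given for it.

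**Figure D2:**
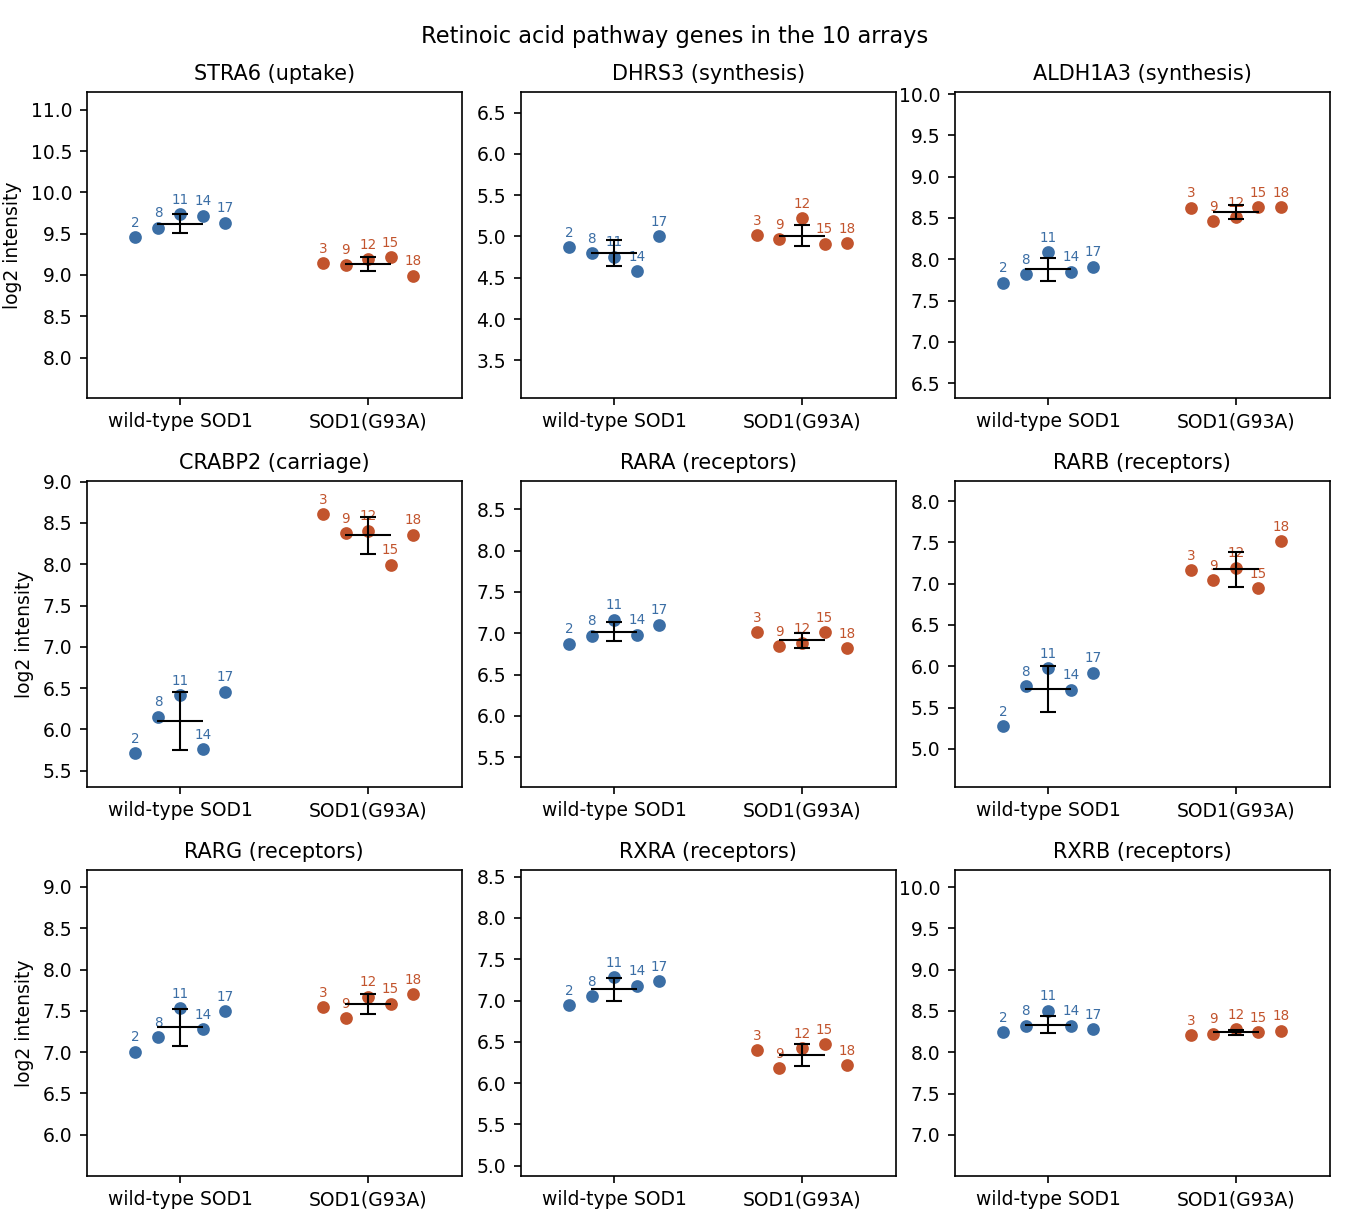
Log2 intensity (y axis, the same span of 3.7 in every panel) of each measured member in the 5 wild-type SOD1 and the 5 SOD1(G93A) arrays; points are arrays labelled by sample number, and bars are mean ± SD. CRABP2, RARB and ALDH1A3 are higher, and RXRA and STRA6 lower, in all SOD1(G93A) arrays, while the groups overlap in DHRS3, RARA, RARG and RXRB.

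Among the receptors, RARB changed most. RARB levels with wild-type SOD1 were 5.27, 5.76, 5.98, 5.71 and 5.92, sample 2 being the lowest. With SOD1(G93A) they were 7.17, 7.04, 7.19, 6.94 and 7.51, sample 18 being the highest. The groups lay 0.96 apart. RARB rose by 1.44 (SE 0.14, limma adjusted p = 9.25e-05), or 2.72-fold, rank 34 among the rises of named genes.

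RXRA, one of the RXR partners that RARs need to bind DNA and that also pair with other nuclear receptors, fell. Wild-type arrays read 6.94, 7.05, 7.28, 7.18 and 7.24, and SOD1(G93A) arrays 6.40, 6.18, 6.43, 6.47 and 6.22. Every SOD1(G93A) array was at least 0.47 below the lowest wild-type array. RXRA fell by 0.80 (SE 0.08, limma adjusted p = 0.000154), or 1.74-fold.

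The remaining receptors differed less. RARA, the widely expressed RAR, read 6.87, 6.97, 7.17, 6.98 and 7.11 in wild-type and 7.01, 6.85, 6.88, 7.01 and 6.82 in SOD1(G93A) arrays, with overlapping groups and a difference of −0.11 (95% interval −0.26 to 0.05, limma adjusted p = 0.492). RARG, a further RAR gene, read 7.005, 7.18, 7.53, 7.28 and 7.49 against 7.54, 7.41, 7.67, 7.59 and 7.70. Of the SOD1(G93A) arrays all but sample 9 lay above every wild-type array. The RARG difference was 0.28 (95% interval 0.05 to 0.52, limma adjusted p = 0.162).

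RXRB, which can take the place of RXRA as partner, read 8.24, 8.32, 8.50, 8.32 and 8.28 in wild-type and 8.21, 8.23, 8.28, 8.24 and 8.26 in SOD1(G93A) arrays. The groups overlapped, and the difference was −0.09 (95% interval −0.22 to 0.04, limma adjusted p = 0.476). RXRG, the third RXR gene, was dim, with means of 3.03 ± 0.18 and 3.10 ± 0.18 (SD, n = 5 each), both under the lower quartile of all probe sets. These intervals leave out changes of 2-fold in RARA, RARG, RXRB and RXRG on this scale, and those of RARA, RXRB and RXRG include 0. Differences of dim probe sets are compressed.

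Within the wild-type line the members moved together from array to array. Sample 2 was the lowest wild-type array for 8 of the 9 members, all but DHRS3, while it was the lowest for 21.7% of named genes. Sample 11 was the highest for 7 of the 9, against 26.2% of named genes. In the SOD1(G93A) line no sample was the lowest for more than 3 members or the highest for more than 4. Without sample 2 the calls of STRA6, ALDH1A3, RARB and RXRA stood and no member changed direction; the difference became −0.53 in STRA6, 0.66 in ALDH1A3, 2.15 in CRABP2, 1.33 in RARB and −0.85 in RXRA.

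The other genes of the route mostly did not pass. Of 124 genes in 8 lists, members left out, 91 were measured; 4 passed with a rise and 10 with a fall, or 15.4% against 9.60% of named genes. Their median log2 fold change was −0.02.

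Of 11 further genes of retinol uptake and storage 1 was called, LPL, a lipase that helps take up retinyl esters, which was dim and fell by 0.48 (SE 0.12, limma adjusted p = 0.0312). LPL no longer passed when any 1 of 8 arrays was left out (limma adjusted p reaching 0.0730), nor with neighbouring sample numbers as a block (0.0991). RBP4, the retinol carrier of blood, and LRAT, which esterifies retinol for storage, differed by −0.08 (SE 0.08) and 0.02 (SE 0.08).

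Among 17 further synthesis genes, RDH5, a retinol dehydrogenase, rose by 0.23 (SE 0.06, limma adjusted p = 0.0402); it no longer passed when any 1 of 9 arrays was left out (limma adjusted p reaching 0.1005), nor with that block (0.0909). RDH14, another of that family, fell by 0.38 (SE 0.07, limma adjusted p = 0.0101). RDH10, the main embryonic retinol dehydrogenase, had means of 5.87 and 5.88. ALDH1A1 and ALDH1A2, the sister enzymes of ALDH1A3, lay under the lower quartile in both lines, with means of 2.11 and 2.14 for ALDH1A1 and 3.68 and 3.51 for ALDH1A2, and neither passed.

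Breakdown and carriage showed no further call. None of 4 breakdown genes passed, by limma or an unmoderated linear model, nor had any an unadjusted p under 0.05, and their differences ran from −0.02 to 0.08. CYP26A1, the hydroxylase whose gene is among the most strongly induced by retinoic acid, was dim in both lines, at 3.25 ± 0.10 and 3.33 ± 0.15 (SD, n = 5 each; difference 0.08, 95% interval −0.10 to 0.26). CYP26B1 had means of 4.69 and 4.72 (difference 0.03, 95% interval −0.18 to 0.25). The 5 other measured carriers, RBP2, RBP5, RBP7, RLBP1 and FABP7, differed by −0.14 to 0.06 and none passed, by either model or unadjusted. FABP5, a further carrier, was not analysed here.

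The coregulators through which receptors act on chromatin held 3 called falls and 0 called rises among 18 measured genes. Of named genes 5.57% fell and 4.03% rose. By limma 7 of the 18 had an unadjusted p under 0.05. The uncalled ones were NRIP1 (0.37, limma adjusted p = 0.0511), NCOA2 (0.20), SIN3A (0.18) and TRIM24 (−0.18). KAT2B, a histone acetyltransferase, fell by 0.81 (SE 0.07, limma adjusted p = 2.60e-05) and NCOA1, a steroid receptor coactivator, by 0.59 (SE 0.05, limma adjusted p = 5.05e-05). ZNF423, a zinc finger protein reported to be needed for the retinoic acid response of neuroblastoma cells, fell by 0.37 (SE 0.06, limma adjusted p = 0.00464). The RAR repressor PRAME was not analysed here. NCOA1 and RDH14 lie on chromosome 2 between SH3YL1 and ACYP2, a stretch known from earlier results of these data in which 101 of 191 named genes were lower and 2 higher.

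Of 7 measured receptors that pair with RXR, 1 rose, 2 fell and 4 did not pass. THRB, a thyroid hormone receptor, fell by 0.64 (SE 0.06, limma adjusted p = 7.49e-05) and the fatty acid receptor PPARD by 0.37 (SE 0.05, limma adjusted p = 0.00125). The oxysterol receptor NR1H3 rose by 0.30 (SE 0.07, limma adjusted p = 0.0165; 0.0711 with that block).

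Of 32 further genes reported to respond to retinoic acid in some cell type, 2 rose and 3 fell. Of named genes 4.03% rose and 5.57% fell. The median log2 fold change of the 32 was −0.0008. By limma 8 of them had an unadjusted p under 0.05, the uncalled ones being NRIP1 (0.37), NAV2 (0.19) and NTRK2 (−0.20). GBX2, a homeobox gene, went from 6.09 ± 0.18 to 7.23 ± 0.07 (SD, n = 5 each; rise of 1.14, SE 0.09, limma adjusted p = 1.07e-05), with no overlap between the groups. The immediate early gene EGR1 fell by 0.66 (SE 0.11, limma adjusted p = 0.00305) and the transcription factor ETS1 by 0.49 (SE 0.08, limma adjusted p = 0.00427). Named after their values were seen, NEDD9, a scaffold protein of focal adhesions, rose by 0.44 (SE 0.08) and the homeobox gene MEIS1 fell by 0.32 (SE 0.07); the MEIS1 call was lost without SOD1(G93A) sample 15 (limma adjusted p = 0.0523) and with that block (0.0714). RARB, CRABP2, DHRS3, STRA6 and RARA stand in this list too and are left out of these counts.

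**Figure D3:**
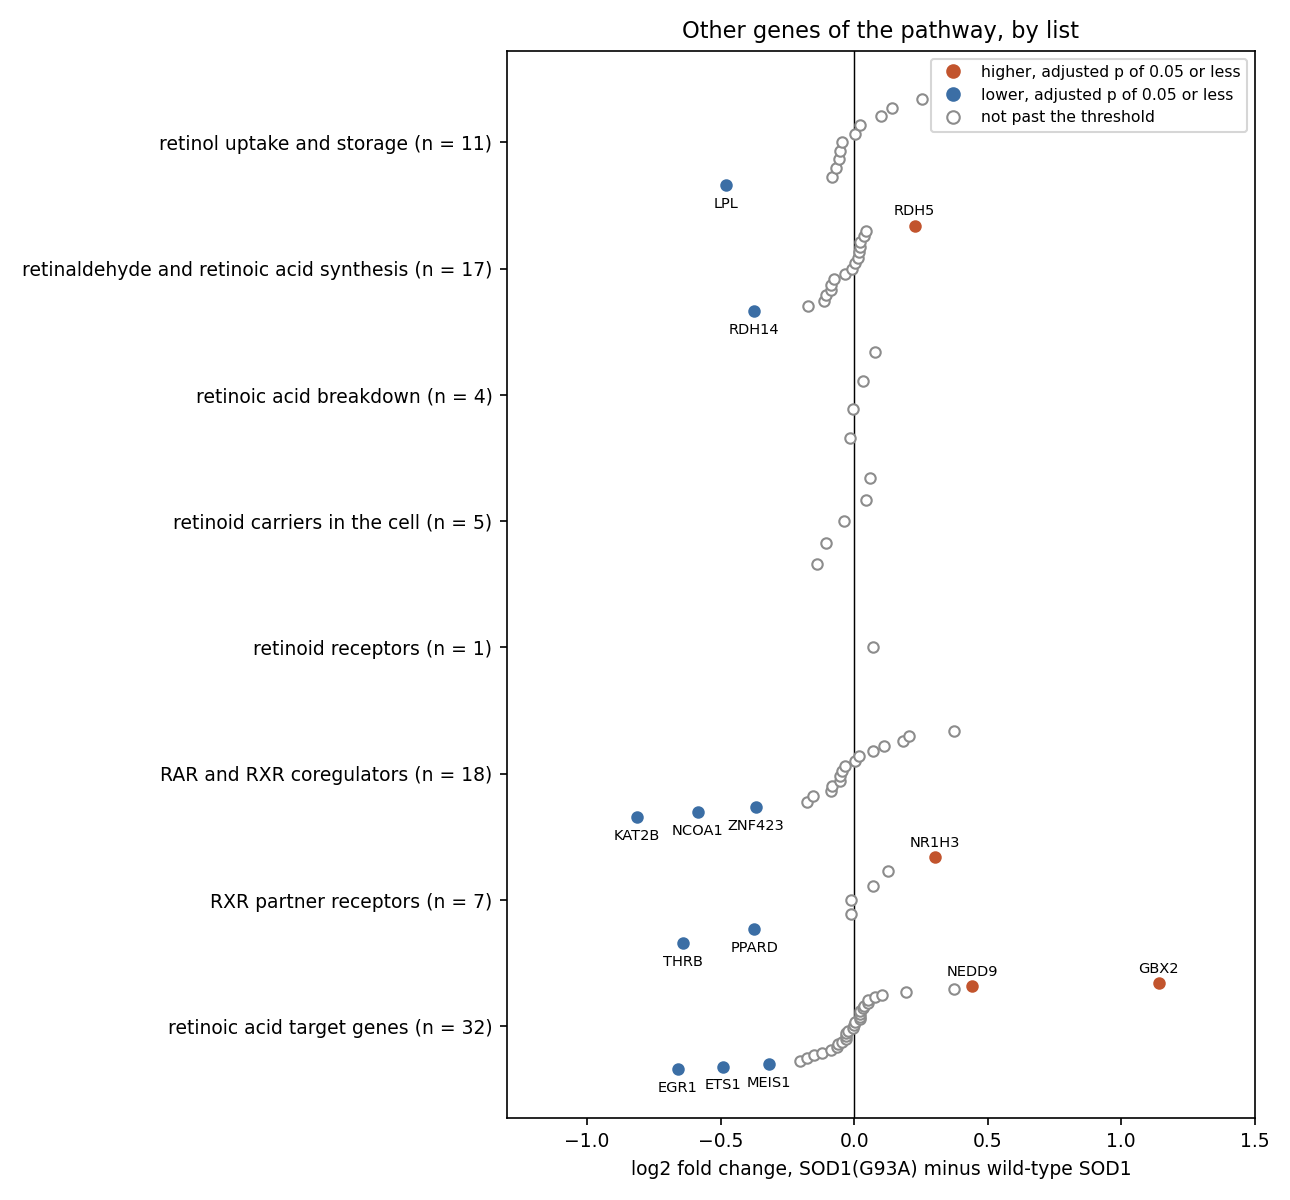
Log2 fold change (x axis) of the 91 measured pathway genes other than the members, 1 point per gene and sorted within each list (y axis); genes in more than 1 list appear in each, and filled points passed an adjusted p of 0.05. Most points lie close to 0, and the largest departures are GBX2 (1.14) and KAT2B (−0.81).

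Genes next to the members in RefSeq order were examined after the values had been seen. Over 2 measured protein-coding genes on each side of the 9 members, 6 of 36 neighbours were called, all lower, and over 5 on each side 9 of 90, 2 higher and 7 lower, against 9.60% of named genes. STRA6 lay among lower genes: ISLR fell by 0.41 (SE 0.08), CCDC33 by 0.32 (SE 0.06) and ISLR2 by 0.29 (SE 0.06). PML beyond ISLR2 differed by −0.15 (SE 0.09). On the far side of CCDC33, CYP11A1 differed by −0.05 (SE 0.10) but was dim, with means of 3.33 and 3.28. SEMA7A, the next gene, differed by −0.16 (95% interval −0.28 to −0.05) and was not called. UBL7 and ARID3B beyond it differed by 0.01 and 0.18. RARB stood against its neighbours on one side, THRB and NR1D2, which fell by 0.64 (SE 0.06) and 0.69 (SE 0.09), and on the other side TOP2B differed by 0.003 (SE 0.09) and NEK10, the fifth gene, rose by 0.40 (SE 0.07). Beside RXRA, OLFM1 fell by 0.85 (SE 0.08), but COL5A1, which lies between them, differed by 0.20 (SE 0.07) and was not called. Of the 10 nearest neighbours of RXRA, 5 had an unadjusted p under 0.05 by limma. Uncalled among these were COL5A1, VAV2 (0.21), BRD3OS (0.24) and PIERCE1 (0.33). The same count was 5 for STRA6 and 4 for RARB. By limma 0 of the 10 nearest neighbours of CRABP2 and 0 of those of ALDH1A3 were called, and 2 and 4 of them had an unadjusted p under 0.05. Those of CRABP2 were HDGF (−0.18) and PRCC (−0.23). On one side of ALDH1A3 all 5 genes differed by 0.15 to 0.34, CHSY1, SELENOS and PCSK6 with an unadjusted p under 0.05 by limma. The fourth such gene was ADAMTS17 (−0.15) on the other side.

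**Figure D4:**
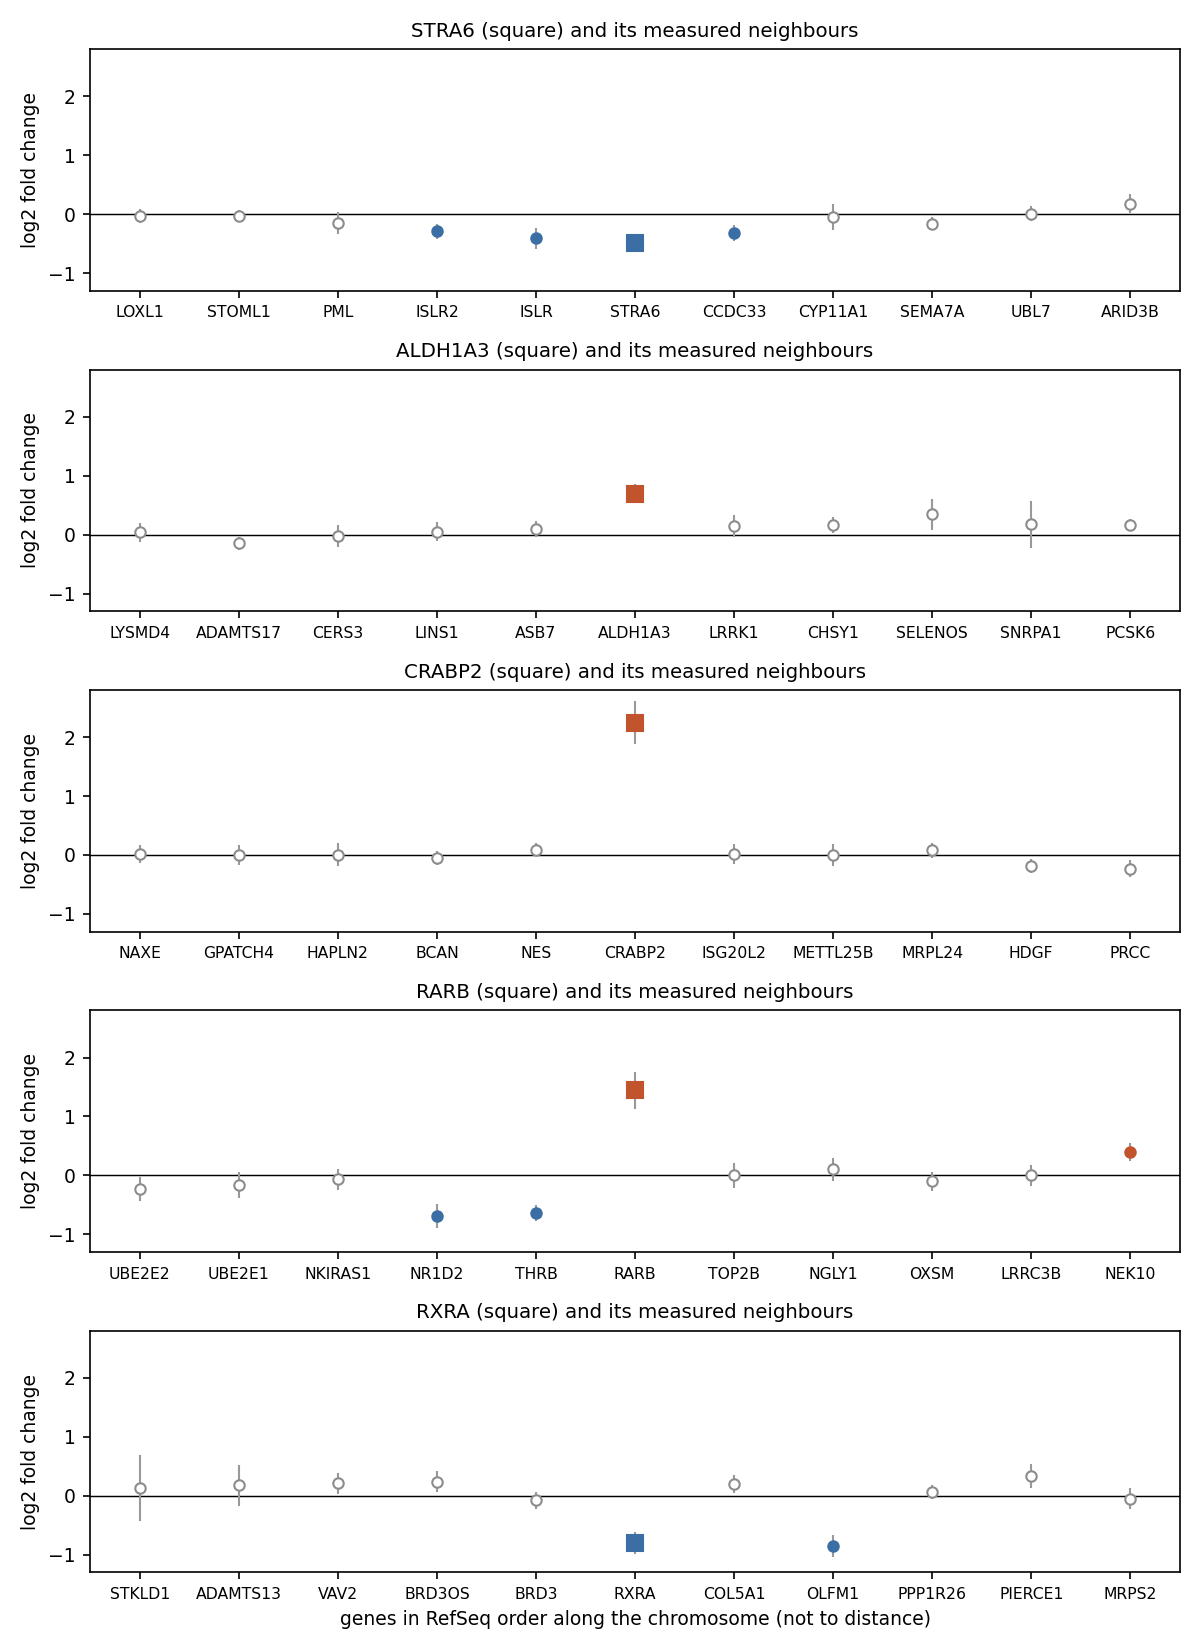
Log2 fold change with 95% interval (y axis) of CRABP2 and the 4 called members (squares). Circles are the 5 measured protein-coding genes on each side of them in RefSeq order (x axis, rank and not distance). Filled symbols passed an adjusted p of 0.05 (no test is drawn from that of CRABP2). STRA6 (−0.49) has lower genes on both sides, whereas CRABP2 (2.25) and ALDH1A3 (0.70) have no called gene beside them. The 5 genes on one side of ALDH1A3 lie at 0.15 to 0.34, uncalled.

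Markers of other cell states moved between the lines as well. Of 8 mesenchymal (S-type) markers 4 rose, YAP1 by 0.66 (SE 0.07), CD44 by 0.47 (SE 0.07), FN1 by 0.46 (SE 0.06) and VIM by 0.37 (SE 0.08), and SNAI2 fell by 1.03 (SE 0.10). Over all named genes 4.03% were higher and 5.57% lower. By limma 7 of the 8 had an unadjusted p under 0.05, the uncalled ones being FOSL1 (0.31) and WWTR1 (0.19), while PRRX1 differed by −0.05. The log2 levels of the 8 markers summed to between 49.9 and 51.3 in wild-type and between 51.1 and 52.6 in SOD1(G93A) arrays. Of 4 measured Schwann and glial markers only S100B was called, with a rise of 0.73 (SE 0.11) from a dim 3.69 to 4.42. GFAP, SOX10 and ERBB3 differed by −0.03, −0.04 and 0.16. The sums of the 4 markers, 17.3 to 17.5 against 17.9 to 18.5, therefore mostly read S100B. The 3 fibroblast and the 6 immune or endothelial markers gave 0 calls (limma; 2 and 0 at an unadjusted p under 0.05), with sums of 17.5 to 18.2 against 17.9 to 18.6 and of 20.1 to 20.8 against 20.1 to 20.5. The leukocyte marker PTPRC lay at 2.10 to 2.24 in all arrays, below the lower quartile. The part of these markers in the members' differences was not tested.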

How the data were processed

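RNA of 10 SH-SY5Y samples, 5 in each of 2 groups taken from the labels, was measured on exon arrays. The authors deposited log2 intensities, 1 per gene-level probe set and array (22011 probe sets). The analysis software was oneChannelGUI 1.6.5, per the labels, and per the submitters' processing notes they used RMA, which makes array distributions alike, so a shift of all genes together is not visible. Background, scan batch and detection calls were not analysed here; the sources used here name no genome build.

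Probe sets with exactly 1 symbol in the platform annotation (14432) were named and symbols updated through the RefSeq table of GRCh38.p14; 28 had no match there. limma 3.58.1 in R 4.3.3 (lmFit, eBayes, 2-sided) was fitted to all probe sets with Benjamini-Hochberg adjustment, no filter on level, and a threshold of 0.05; 5 arrays a group limit the precision, and the script was tested on simulated data. Members, lists and rules were chosen with earlier results of these data known. Beside the members, the genes named were up to 3 called genes per list with the largest change, 13 listed names whatever their values (some are not reported here), and the 5 genes most like the member with the largest change. Alternatives were other filters, variance models, scalings, weights, the omission of each array and, added after seeing the data, a block on neighbouring sample numbers.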

Additional observations from a re-analysis of the deposited data

Results flagged for a closer look

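Each group of 5 values of the members and the other named genes was searched for an array standing apart, by the gap to its nearest neighbour over the range, 64 groups in all. Chance flags about 1 in 20 such groups, and 2 were flagged, neither in a member. ETS1 was 6.14 in SOD1(G93A) sample 12 and between 6.36 and 6.41 in the other SOD1(G93A) arrays. LRAT, which is dim, was 3.14 in SOD1(G93A) sample 15 and between 3.26 and 3.29 in the others.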

How the results depend on the processing

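When a 2-fold minimum was added, as in the labels, 192 of 1643 probe sets and 1 of the 14 called pathway genes (GBX2) passed. Of the 4 called members other than CRABP2, 1 passed (RARB). Under the other settings in which they were tested, these 4 members stayed past the threshold and the 4 uncalled ones below it. No measured member changed direction. CRABP2 was picked for its rise, so its standing under these settings is no support for it. Leaving out 1 array at a time gave 1274 to 1562 probe sets, the same 4 members besides CRABP2 and 11 to 14 pathway genes. DHRS3 lies below the median probe set and drops out under that filter. Small differences that changed sign ranged, with 1 array left out, from −0.043 to 0.077 in LRAT, −0.028 to 0.054 in RDH10, −0.024 to 0.114 in CYP26B1 and −0.0073 to 0.105 in RXRG, single values being −0.0025 and −0.021 in RDH10 and −0.0043 in RXRG. Without samples 17 and 18 together RDH10 was −0.014 and ALDH1A1 −0.0038. The groups share no sample number, and the labels pair none. A replicate block joined each wild-type sample with the SOD1(G93A) sample of the next number and was chosen after seeing the data. It gave 1213 probe sets, the same 4 members besides CRABP2 and 10 pathway genes, with the calls of LPL, RDH5, NR1H3 and MEIS1 lost. Deviations of such neighbours from their group means correlated at −0.03 to 0.14, and 1 of the 5 pairs (8 and 9) correlated best with its own number. Background subtraction could not be varied on summarised values, and signal near the background limits the dim genes.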

Other observations

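Other genes whose levels followed CRABP2 were ranked by Pearson's correlation with it over the 10 arrays, a description that mostly reads the difference between the lines. The 5 highest were DLG2, a synaptic scaffold protein (r = 0.987, log2 fold change 1.12, SE 0.10), VASH1, a tubulin carboxypeptidase (r = 0.986, 0.99, SE 0.06), TNFRSF1A, a receptor for tumour necrosis factor (r = 0.985, 1.51, SE 0.09), GPC6, a glypican (r = 0.984, 0.80, SE 0.06), and S100A10 (r = 0.984, 4.25, SE 0.25). After the group means were removed, the correlations were 0.80 for DLG2, 0.69 for VASH1, 0.64 for TNFRSF1A, 0.65 for GPC6 and 0.64 for S100A10. These genes were picked on the same arrays by a correlation that includes this scatter, so these values are no separate evidence.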
